A study of Mus musculus with 2 samples.

Results

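The cells described here are dermal fibroblasts of mouse skin that were picked by transcripts of Cilp, Thbs4 and Meox1, and they were 978 of 20271 cell barcodes in 2 single-cell libraries. A barcode had to hold at least 200 detected genes and at most 10% mitochondrial counts. It counted as a fibroblast when Col1a1, Col1a2, Col3a1 and Dcn made up at least 1% of its counts, Ptprc was at 0 and Krt5 with Krt14 stayed under 0.2%. This left 3590 fibroblasts in the IMQ-D5 library and 6894 in the Ctrl library. Members then carried at least 2 unique molecular identifiers (UMIs, 1 per captured transcript molecule) of Thbs4, Cilp and Meox1 summed, fewer than 3 of Pi16, fewer than 2 of Coch and fewer than 3 of Col11a1, Lrrc15 and Acan summed. The IMQ-D5 library held 343 members and the Ctrl library 635. These genes chose the cells, so their levels are given as a description only.

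Fibrous connective tissue fibroblasts build the fascia and the septa below and between the soft layers of skin. Cilp encodes a secreted matrix protein of cartilage and fibrous tissue that binds TGF-beta, Thbs4 encodes thrombospondin 4, a matrix protein of tendon and muscle attachment, and Meox1 encodes a homeobox transcription factor. Mgp and Col8a1 are further markers that were given for these cells and were not used to choose them; Mgp encodes matrix Gla protein, an inhibitor of calcification, and Col8a1 a short-chain, network-forming collagen.

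The IMQ-D5 library came from back skin that received imiquimod, an activator of Toll-like receptors, once a day on its surface for 5 days, a treatment that provokes a psoriasis-like inflammation. The Ctrl library came from skin of the control group. Both were from wild-type C57BL/6 mice aged 2 months, stated to be female, and how many animals went into a library is not given in the sources used here. Skin was digested with collagenase D and DNase, freed of dead cells and counted by a droplet method that reads the 3' ends of transcripts. With 1 library a group there was no replicate and no test between groups: each difference is one between these libraries, and every interval is an exact 95% interval for counting error, with no allowance for variation between animals.

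Members held 4988600 UMIs in the IMQ-D5 library and 6547010 in the Ctrl library, with a median of 14099 UMIs and 3483 genes a cell in the IMQ-D5 library against 9729 UMIs and 2624 genes in the Ctrl library. The libraries shared 23 barcodes, none of them a member. The largest single cell gave 0.816% of member UMIs in the IMQ-D5 library and 0.934% in the Ctrl library. Free RNA in the droplets was estimated at 1.71% of member UMIs in the IMQ-D5 library and 7.28% in the Ctrl library. Scrublet called 4 IMQ-D5 and 15 Ctrl members doublets. Those cells were kept.

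By their counts the members are Cilp fibroblasts more than Thbs4 fibroblasts. Cilp (chromosome 9, 65265180 to 65280605, plus strand, GRCm38) was detected in 313 of 343 IMQ-D5 members and 628 of 635 Ctrl members. Thbs4 (chromosome 13, 92751590 to 92794818, minus strand) was detected in 61 IMQ-D5 and 69 Ctrl members, and Meox1 in 81 IMQ-D5 and 30 Ctrl members. Cells with Cilp alone of the 3 made up 65.6% of IMQ-D5 members and 88.0% of Ctrl members, whereas 14 IMQ-D5 and 22 Ctrl members had all 3. Exactly 2 UMIs of these genes put 56 IMQ-D5 and 137 Ctrl cells just inside the rule, and 153 IMQ-D5 and 364 Ctrl fibroblasts that met every other step had 1 UMI and fell just outside.

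The 10 markers of tendon and ligament cells were unevenly present. They summed to 439 CPM (counts per 1000000 UMIs of the cells counted) in IMQ-D5 members and 180 CPM in Ctrl members, against 462 and 199 CPM in the other fibroblasts of the same libraries. Scx, a transcription factor of tendon progenitors, stood at 2.41 CPM in IMQ-D5 members and 2.29 CPM in Ctrl members. Comp, Chad and Kera, matrix genes of tendon and cartilage, had 1, 1 and 2 UMIs over all IMQ-D5 members and 0, 0 and 9 over all Ctrl members. Tnmd, which encodes tenomodulin, had 133 CPM in IMQ-D5 members and 88.7 CPM in Ctrl members, against 121 and 120 CPM in the other fibroblasts. At 5000 UMIs a cell it was detected in 32.8% of IMQ-D5 members and 24.8% of Ctrl members (42.0% and 29.6% unthinned), where other fibroblasts had it in 25.7% of IMQ-D5 cells and 22.7% of Ctrl cells. The label of a fibrous connective tissue cell therefore rests on Cilp for most members, and they are called Cilp fibroblasts below.

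Cilp fibroblasts took a like share of all fibroblasts in both libraries when the rule was applied to whole cells. The share was 9.55% (8.61 to 10.6) in the IMQ-D5 library and 9.21% (8.54 to 9.92) in the Ctrl library. IMQ-D5 fibroblasts held more UMIs a cell, which touches both the steps that ask for UMIs and those that forbid them. Among cells with 5000 UMIs or more, other fibroblasts had medians of 14120 UMIs in IMQ-D5 and 10426 in Ctrl. Cells with Ptprc had 8065.5 and 8027.5, and cells with Krt5 and Krt14 had 30563.5 and 17690.5. Whether sequencing or the RNA content of cells made the difference was not tested. With every cell thinned to 5000 UMIs, which left out 348 shallower IMQ-D5 and 1092 shallower Ctrl fibroblasts, the shares were 11.7% (10.7 to 12.9) in the IMQ-D5 library and 7.96% (7.27 to 8.68) in the Ctrl library. At 3000 UMIs they were 13.6% and 7.30%. At an equal number of UMIs the shares were therefore not alike, and the IMQ-D5 share was the higher one. The limits on Pi16, Coch, Col11a1, Lrrc15 and Acan were not scaled, so cells they left out as whole cells could become members. Members numbered 343 in whole IMQ-D5 cells, 384 at 5000 UMIs and 464 at 3000, against 635, 463 and 464 in Ctrl. The thinned shares thus describe a partly different set of cells.

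The steps on Pi16, Coch and the sheath genes removed most cells that carried Thbs4, Cilp or Meox1. Before them 1355 IMQ-D5 fibroblasts had 2 or more UMIs of the 3 genes, which is 37.7% (36.2 to 39.4), against 1301 Ctrl fibroblasts, 18.9% (18.0 to 19.8). At 5000 UMIs the shares were 30.9% in the IMQ-D5 library and 14.3% in the Ctrl library. Pi16, a marker of interstitial progenitor fibroblasts, left out 869 of these IMQ-D5 cells and 593 of these Ctrl cells, Coch 136 and 74, and Col11a1 with Lrrc15 and Acan 225 and 58. Leukocytes, taken as cells with Ptprc, had Cilp in 1.25% of 642 IMQ-D5 cells and 3.50% of 200 Ctrl cells at 5000 UMIs (2.18% and 5.00% unthinned, at median depths of 8066 and 8028 UMIs), where other fibroblasts had it in 33.9% of IMQ-D5 cells and 13.7% of Ctrl cells (41.3% and 18.4% unthinned).

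**Figure D1:**
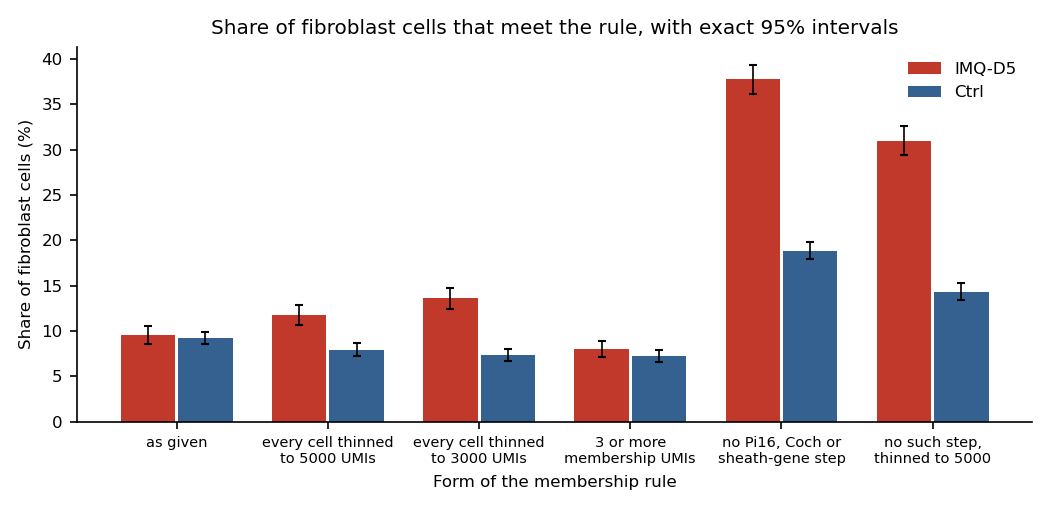
Bars give the share of fibroblasts (%) that met the rule in the IMQ-D5 and Ctrl libraries under 6 forms of it, with exact 95% binomial intervals. The shares are 9.55% and 9.21% as given, 11.7% and 7.96% at 5000 UMIs a cell, and 37.7% and 18.9% without the Pi16, Coch and sheath-gene steps.

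When the fibroblasts of each library were clustered on their own, a step added after the data had been seen, Cilp fibroblasts were spread over many clusters. A single cluster in each library was led by Thbs4, Cilp and Col8a1, with 284 cells in the IMQ-D5 library and 268 in the Ctrl library. It held 41 IMQ-D5 members (11.95% of them) and 73 Ctrl members (11.5%). Members were 14.4% of this cluster in the IMQ-D5 library and 27.2% in the Ctrl library, and the Pi16 step took out 217 of its IMQ-D5 cells (76.4%) and 159 of its Ctrl cells (59.3%). Most cells of the cluster were therefore not members.

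The largest groups of the other members sat in clusters with different leading genes in the 2 libraries. In the IMQ-D5 library 70 members lay in a cluster led by Ctla2a and Mlana, 66 in one led by Hmcn2, Myoc and Prg4, and 54 in one led by Esm1 and Gdf10. In the Ctrl library 163 members lay in a cluster led by Cfd and Mup20, 127 in one led by Igfbp2, Stc1 and Grem1, and 97 in one led by Coch and Fmod. Several of these leading genes recurred in the other library, in clusters with fewer members. Hmcn2 and Myoc were among those of a Ctrl cluster with 32 members, and Gdf10 of one with 24. Grem1 came first in an IMQ-D5 cluster with 27 members and Igfbp2 in one with 4. Coch and Fmod were among those of an IMQ-D5 cluster with 0 members. The clusters were made in each library alone and were not matched, so whether the mixture of cells differed was not tested. Leading genes describe all cells of a cluster, not its members alone. A different mix and a different level within a cell cannot be told apart from the summed counts. These clusters were made from 2000 variable genes of the same counts, so their leading genes are no result.

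**Figure D2:**
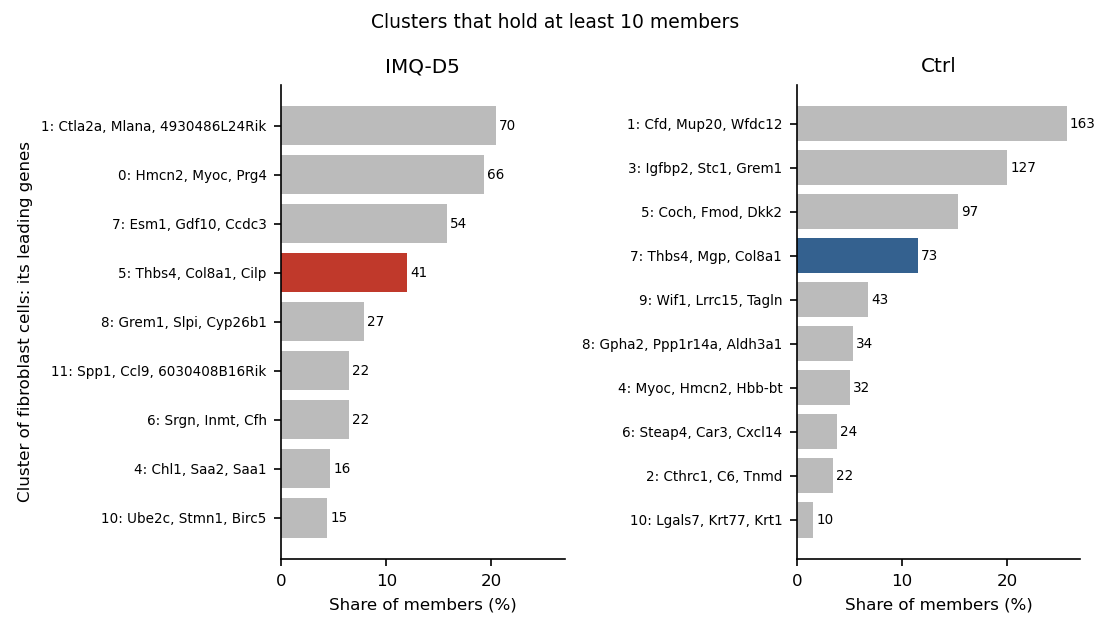
Bars give the share of members (%) in each fibroblast cluster that held at least 10 members, with the number of members beside each bar and the first 3 leading genes on the vertical axis; IMQ-D5 is on the left and Ctrl on the right. The coloured cluster, led by Thbs4 and Cilp, holds 41 IMQ-D5 and 73 Ctrl members.

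Col8a1 was among the leading genes of the Thbs4-led cluster in both libraries and Mgp in the Ctrl library, so the clustering itself fixed that their levels differ inside and outside it. Their levels are given as a description. Col8a1 stood at 1099 CPM inside and 25.3 CPM outside in the IMQ-D5 library, and at 371 CPM inside and 2.63 CPM outside in the Ctrl library. Mgp had 6890 CPM inside and 1334 CPM outside in the IMQ-D5 library, and 1858 CPM inside and 59.6 CPM outside in the Ctrl library. Members outside the cluster thus had almost no Col8a1 in Ctrl skin.

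A few further genes, chosen after their values were seen, are described in the same way. Fmod, a collagen-binding proteoglycan of tendon, had 393 CPM inside and 2.38 CPM outside in the IMQ-D5 library, and 231 CPM inside and 1.31 CPM outside in the Ctrl library. This contrast holds among members only. Fmod was also among the leading genes of a Coch-led cluster in each library, and cells with 2 or more Coch UMIs could not be members. Ctgf, a matricellular target of TGF-beta and YAP, had 982 CPM inside and 173 CPM outside in the IMQ-D5 library, and 476 and 72.6 CPM in the Ctrl library. Scx had 11 UMIs inside the cluster and 1 outside it in IMQ-D5 members, which is 30.003 and 0.216 CPM, and 8 inside and 7 outside in Ctrl members, 17.5 and 1.15 CPM. Levels in the other direction were Grem1 in the Ctrl library, with 2.18 CPM inside and 310 CPM outside, and Cxcl12 in the IMQ-D5 library, with 213 CPM inside and 1836 CPM outside.

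**Figure D3:**
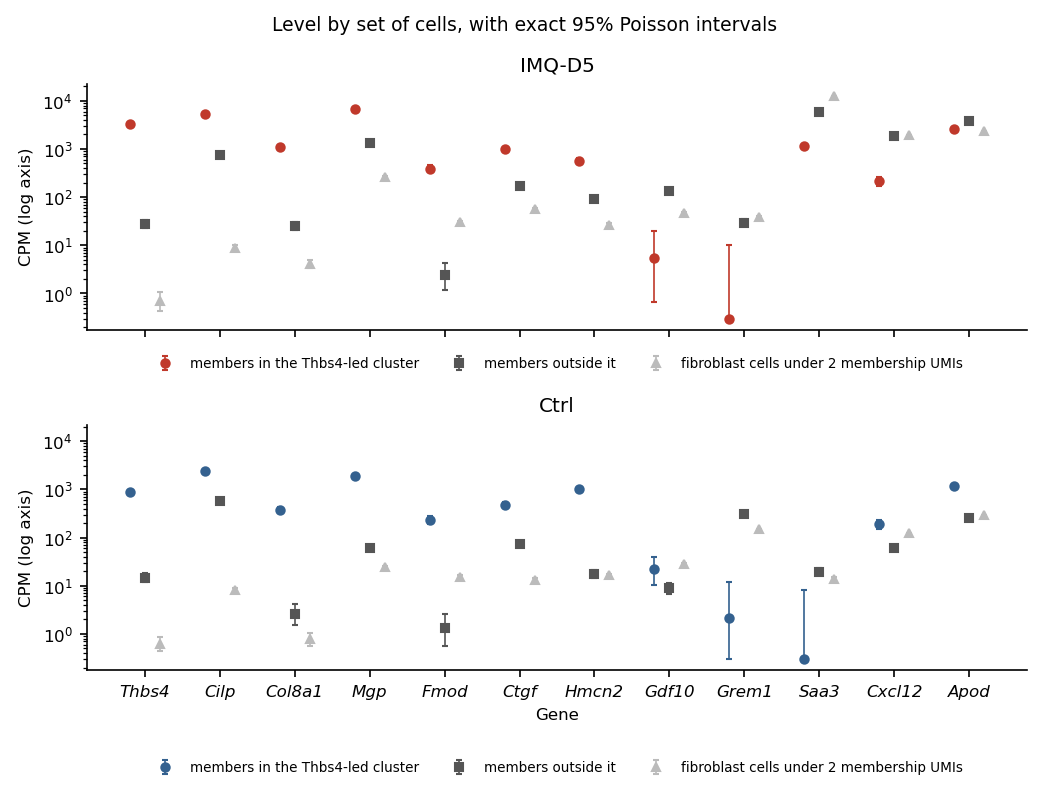
Points give the level (CPM, log axis) of 12 genes in members inside the Thbs4-led cluster, members outside it and fibroblasts with fewer than 2 UMIs of Thbs4, Cilp and Meox1, with exact 95% Poisson intervals; the upper panel is IMQ-D5, the lower Ctrl, and a level of 0 is drawn near the foot of the axis. Col8a1 and Fmod are high in the cluster in both panels, while Saa3 and Cxcl12 in IMQ-D5 and Grem1 in Ctrl are higher outside it.

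Between the libraries, Cilp fibroblasts of IMQ-D5 skin had far more transcripts of acute-phase proteins, chemokines and complement, and fewer of several Wnt and BMP modulators. Genes with 20 UMIs or more in the pair of libraries were measured. The words higher and lower are used for ratios of 2-fold or beyond whose interval leaves out equality. Of 11246 measured genes 1297 (11.5%) were higher and 669 (5.95%) lower in IMQ-D5 members. These shares are the background for the counts of gene lists in all members below. In the other fibroblasts 1555 of 14499 (10.7%) were higher and 870 (6.0%) lower. Over all genes measured the middle log2 ratio was 0.21 in members and 0.24 in other fibroblasts, and with this median set to 0 the members' counts were 876 higher and 939 lower, so that 48.3% of calls were higher in place of 66.0%. The median of a gene list is therefore also given relative to it where the text says so. All other list medians are given without this step. Genes higher in both sets numbered 628 and genes lower in both 337, while 5 were higher in members and lower in the others and 4 the reverse.

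The 12 genes most clearly higher in IMQ-D5 members were led by acute-phase and defence genes. Hp, which encodes the haemoglobin-binding protein haptoglobin, had 2564 UMIs in 59 IMQ-D5 members and none in Ctrl members, at least 1122-fold higher when 3 UMIs are put in place of 0 in the Ctrl library. Saa3 (chromosome 7, minus strand), which encodes a serum amyloid A, had 5575 CPM in IMQ-D5 members and 18.3 CPM in Ctrl members, 304-fold (254 to 367) higher. It was detected in 226 IMQ-D5 members and in 2 Ctrl members, of which 1 gave 119 of the 120 Ctrl UMIs. Lcn2, which encodes the siderophore-binding lipocalin 2, had 501 CPM in IMQ-D5 members and 3.97 CPM in Ctrl members, 126-fold (85.9 to 194) higher.

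At 5000 UMIs a cell Saa3 was detected in 61.6% (55.9 to 67.1) of IMQ-D5 members and 0.370% (0.0449 to 1.33) of Ctrl members (71.1% and 0.370% of the same cells unthinned). Keratinocytes with Krt5 and Krt14 showed it in 5.81% of IMQ-D5 cells and 0.238% of Ctrl cells (30.5% and 0.238% unthinned), and leukocytes in 25.7% and 0.500% (32.2% and 0.500% unthinned). Other fibroblasts showed it in 51.9% of IMQ-D5 cells and 0.494% of Ctrl cells. For Saa3 the share in IMQ-D5 members lay above that in each of these cell types, which was not so for Hp and Lcn2. Hp was detected in 13.8% of IMQ-D5 members, 10.7% of other fibroblasts, 27.1% of leukocytes and 0.872% of keratinocytes of that library at 5000 UMIs (18.7%, 14.8%, 30.5% and 3.78% unthinned). Lcn2 was detected in 43.9% of IMQ-D5 members, 46.3% of other fibroblasts, 19.9% of leukocytes and 37.4% of keratinocytes (58.4%, 56.9%, 24.5% and 64.0% unthinned).

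The promoters of Saa3 and Lcn2 are shown because these genes had among the largest differences, and that of Cilp because it chose most members. Each window runs from 250 bases before to 50 bases after the gene's start in RefSeq on GRCm38.p6. Capitals mark matches on either strand to TTGCNNAA, a core that C/EBP factors bind. It was found once in Saa3 (chr7:46715627-46715926, minus strand), once in Lcn2 (chr2:32387690-32387989, minus strand) and not in Cilp (chr9:65264930-65265229, plus strand).
Saa3: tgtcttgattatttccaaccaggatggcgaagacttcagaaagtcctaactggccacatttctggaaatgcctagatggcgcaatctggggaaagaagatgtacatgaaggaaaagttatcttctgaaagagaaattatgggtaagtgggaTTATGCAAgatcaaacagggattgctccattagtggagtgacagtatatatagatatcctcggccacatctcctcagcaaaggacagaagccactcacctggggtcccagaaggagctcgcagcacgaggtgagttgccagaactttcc
Lcn2: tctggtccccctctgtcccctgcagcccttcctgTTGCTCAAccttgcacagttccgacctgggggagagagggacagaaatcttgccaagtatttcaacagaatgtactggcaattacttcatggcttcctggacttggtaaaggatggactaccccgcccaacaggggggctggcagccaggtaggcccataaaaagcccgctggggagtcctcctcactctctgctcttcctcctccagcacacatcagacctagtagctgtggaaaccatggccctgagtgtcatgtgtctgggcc
Cilp: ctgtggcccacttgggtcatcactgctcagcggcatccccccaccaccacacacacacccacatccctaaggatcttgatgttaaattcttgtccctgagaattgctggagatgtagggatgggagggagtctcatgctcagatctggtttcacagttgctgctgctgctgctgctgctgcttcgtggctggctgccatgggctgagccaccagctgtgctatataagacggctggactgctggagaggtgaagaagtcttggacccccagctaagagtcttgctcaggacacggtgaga
Of 32851 RefSeq promoter windows 10.8% held TTGCNNAA and 7.81% the AP-1 motif TGANTCA, which was in none of the 3 windows shown. Windows were found for 23 of 35 named genes looked up, and 7 of the 23 held TTGCNNAA. It was in 4 of the 8 with a window among the 12 genes most clearly higher in IMQ-D5 members (Saa3, Lcn2, Cxcl13 and Il33, but not Cxcl12, Igfbp4, Tmem176a or Tmem176b) and in none of the 8 with a window among the 12 most clearly lower. It was also in 3 of the 4 with a window among the 6 genes lower in members than in other fibroblasts. TGANTCA was in 3 of the 23, and an NF-kB motif, held by 0.411% of all windows, in none of them. A match describes these letters only, not binding.

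Several secreted signals followed. Cxcl12, a chemokine for CXCR4-bearing cells, had 1717 CPM in IMQ-D5 members and 69.0 CPM in Ctrl members, 24.9-fold (22.6 to 27.4) higher, and was detected in 302 IMQ-D5 and 219 Ctrl members. Cxcl13, which attracts B cells, had 640 CPM in IMQ-D5 members and 10.1 CPM in Ctrl members, 63.5-fold (49.8 to 82.3) higher. Il33, an alarmin of the interleukin 1 family, had 119 CPM in IMQ-D5 members and 1.68 CPM in Ctrl members, 71.0-fold (39.4 to 143) higher. In other fibroblasts Il33 was 3.77-fold higher, at 133 CPM in IMQ-D5 and 35.3 CPM in Ctrl cells; in the Ctrl library members were thus the lower set.

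The remaining genes of the 12 were Prg4, Igfbp4, Tmem176b, Cfb, Tmem176a and Figf. Prg4, which encodes the surface lubricant lubricin, had 940 CPM in IMQ-D5 members and 8.55 CPM in Ctrl members, 110-fold (84.5 to 146) higher. The other 5 were 21.9-fold to 23.9-fold higher. Igfbp4, a binding protein that restrains insulin-like growth factors, had 431 CPM in IMQ-D5 members and 18.0 CPM in Ctrl members, but 491 and 367 CPM in the other fibroblasts of the same libraries. Figf encodes the lymphatic growth factor VEGF-D and Cfb complement factor B.

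The 12 genes most clearly lower in IMQ-D5 members were mostly secreted regulators. Igfbp2, another insulin-like growth factor binding protein, had 1.40 CPM in IMQ-D5 members and 330.1 CPM in Ctrl members, 235-fold (114 to 586) lower. Gpha2, a glycoprotein hormone subunit, had no UMI in IMQ-D5 members and 66.1 CPM in Ctrl members, at least 110-fold lower against a floor of 3 UMIs. Gal, the neuropeptide galanin, had 1.002 CPM in IMQ-D5 members and 112 CPM in Ctrl members, 112-fold (47.6 to 345) lower. Igfbp2 came from 4 IMQ-D5 and 102 Ctrl members, so it marked a minority of Ctrl members too.

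Modulators of BMP and Wnt signals stood among them. Grem1, a BMP antagonist, had 27.3 CPM in IMQ-D5 members and 288 CPM in Ctrl members, 10.6-fold (8.88 to 12.7) lower, with 14 IMQ-D5 and 202 Ctrl cells positive. Rspo1, an R-spondin that strengthens Wnt signals, had 7.22 CPM in IMQ-D5 members and 87.4 CPM in Ctrl members, 12.1-fold (8.64 to 17.5) lower. Pappa, a protease that cleaves Igfbp4, had 5.21 CPM in IMQ-D5 members and 57.3 CPM in Ctrl members, 10.99-fold (7.38 to 17.0) lower.

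The other 6 were Aldh3a1, Stc1, Miat, Lamc3, Krt79 and Tmem132c, 11.6-fold to 35.3-fold lower. Aldh3a1 is an aldehyde dehydrogenase, Stc1 encodes the hormone stanniocalcin 1, Miat a long noncoding RNA and Lamc3 a laminin chain. Several of the 12 lower genes were leading genes of single Ctrl clusters. Igfbp2, Stc1 and Grem1 led one with 127 members, and Gpha2, Aldh3a1 and Miat one with 34. Gal was a leading gene of one with 163 members. In the IMQ-D5 library Igfbp2 was the first leading gene of a cluster with 4 members and Grem1 of one with 27. Lrrc15 was among the leading genes of the former, and cells with 3 or more UMIs of it could not be members. None of the 12 lower genes reached 20 UMIs in members inside the Thbs4-led cluster. Krt79 is a keratin of the upper hair follicle. Its 708 Ctrl UMIs came from 28 members, 371 of them from 1 cell. In both sets of members 12 of 12 keratinocyte markers were detected, Krt79 itself and the Krt5 and Krt14 of the rule included. These markers summed to 212 CPM in IMQ-D5 and 829 CPM in Ctrl members, against 300 and 884 CPM in other fibroblasts. The part of keratinocyte transcripts in the Krt79 difference was not tested.

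**Figure D4:**
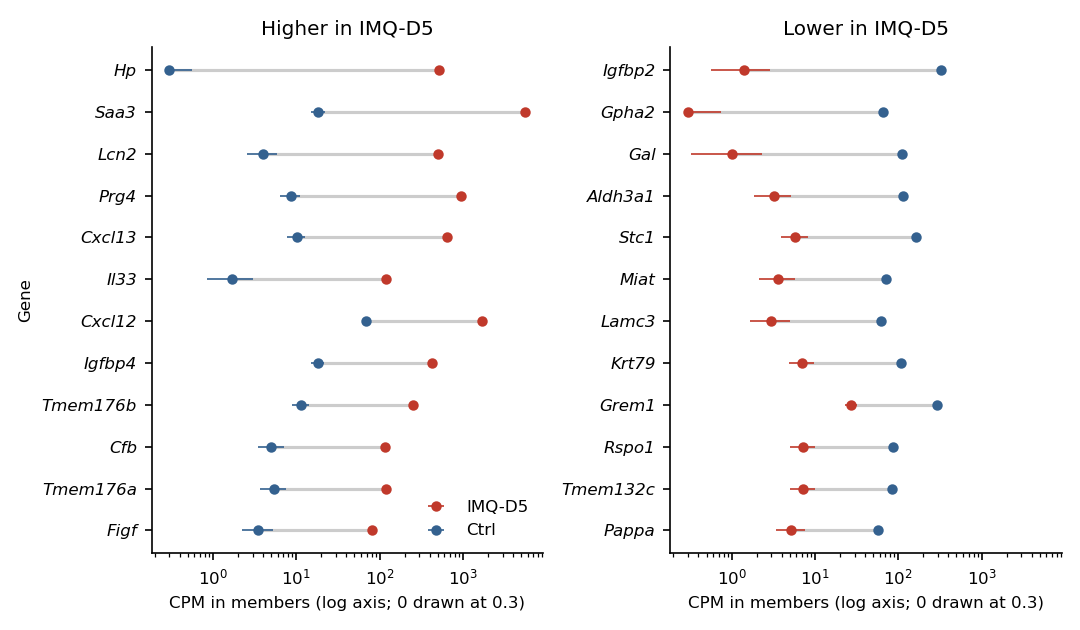
Points give the level (CPM, log axis) of the 12 highest and 12 lowest genes in IMQ-D5 and Ctrl members, with exact 95% Poisson intervals. IMQ-D5 points lie to the high side from Hp to Figf, and to the low side from Igfbp2 to Pappa.

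Among 34 genes of fibrous tissue, tendon and fascia found in the files, 30 were measured in members, and 16 were higher and 3 lower in the IMQ-D5 library. The list had a median of 1.16 on the log2 scale and 0.95 once the median of all genes was taken off, and 3 of the 30 had chosen the cells. Subsets of members differed in it, without a test of the difference. In members with Cilp alone 14 were higher and 2 lower of 27 (median 1.38), and in members with 2 or more of Thbs4, Cilp and Meox1 detected 4 were higher and 2 lower of 29 (median 0.12). Members with Thbs4 detected had 6 higher and 2 lower of 27 (median 0.47). Of those members 26 of 61 in the IMQ-D5 library and 6 of 69 in the Ctrl library had no Cilp. The background of calls over the whole gene table was 10.9% higher and 6.13% lower with Cilp alone, 6.24% and 5.73% with 2 or more of the 3 genes, and 6.69% and 4.87% with Thbs4 detected. Over all cells of the Thbs4-led cluster 9 were higher and 2 lower of 31 (median 0.14), beside 3.21% and 2.98% of all genes measured there. Members inside the cluster had 8 higher and 3 lower of 26 (median 0.53), beside 4.22% and 4.46%. In other fibroblasts 12 were higher and 3 lower of 33 (median 0.85), beside 10.7% and 6.0%. Mgp (chromosome 6, 136872435 to 136875823, minus strand) had 1743 CPM in IMQ-D5 members and 185 CPM in Ctrl members, 9.40-fold (8.85 to 9.99) higher. It was detected in 225 IMQ-D5 and 136 Ctrl members. At 5000 UMIs a cell Mgp was in 60.0% of IMQ-D5 members and 15.4% of Ctrl members, against 34.3% and 6.39% of other fibroblasts and 2.02% and 0.500% of leukocytes. Col8a1 had 104 CPM in IMQ-D5 members and 28.4 CPM in Ctrl members, 3.67-fold (3.10 to 4.36) higher.

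Tnc, the injury-induced matrix protein tenascin C, had 144 CPM in IMQ-D5 members and 14.7 CPM in Ctrl members, 9.79-fold (7.90 to 12.2) higher. Col12a1, a collagen that decorates fibrils under tension, had 111 CPM in IMQ-D5 members and 16.8 CPM in Ctrl members, 6.61-fold (5.38 to 8.19) higher. The 3 lower genes were Mkx, Cpxm2 and Angptl7. Mkx, the tendon transcription factor mohawk, had 16.6 CPM in IMQ-D5 members and 38.03 CPM in Ctrl members, 2.29-fold (1.78 to 2.97) lower. Thbs4 itself stood at 264 CPM in IMQ-D5 members and 75.3 CPM in Ctrl members, and Cilp at 1078 CPM in IMQ-D5 and 695 CPM in Ctrl members.

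Fibrillar and other collagens were split, with 5 higher and 7 lower of 24 measured and a median of -0.05 on the log2 scale and -0.25 against all genes; 4 of them had chosen the cells as fibroblasts or as non-sheath cells. Col1a1 and Col1a2, the chains of type I collagen and used by the rule, stood at 15670 and 19387 CPM in IMQ-D5 members and at 52708 and 61797 CPM in Ctrl members. Col14a1, a collagen that binds fibril surfaces, had 543 CPM in IMQ-D5 members and 96.4 CPM in Ctrl members, 5.63-fold (5.16 to 6.15) higher. In other fibroblasts Col14a1 was 1.80-fold higher. Sparc, a collagen-binding glycoprotein, had 16773 CPM in IMQ-D5 members and 38316 CPM in Ctrl members, 2.28-fold (2.27 to 2.30) lower. The 50 most abundant genes took 26.8% of member UMIs in the IMQ-D5 library and 37.0% in the Ctrl library.

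Of 26 genes that make and cross-link collagen 5 were higher and 1 lower, beside 11.5% and 5.95% of all measured genes. Their median was 0.03, and -0.18 against all genes. Loxl1, a lysyl oxidase of elastic fibres, had 495 CPM in IMQ-D5 members and 120 CPM in Ctrl members, 4.12-fold (3.80 to 4.47) higher. Elastic fibre and basement membrane genes were higher in 8 and lower in 3 among 23 (median 0.72). Fbn2, a fibrillin, had 121 CPM in IMQ-D5 members and 11.6 CPM in Ctrl members, 10.5-fold (8.23 to 13.5) higher, and Mfap5, a microfibril protein, had 816 CPM in IMQ-D5 and 141 CPM in Ctrl members. Elastin itself (Eln) had 2172 CPM in IMQ-D5 members and 1143 CPM in Ctrl members, 1.90-fold higher and short of the 2-fold limit.

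Proteoglycans were higher in 6 and lower in none among 20 measured genes (median 0.48), among them Ogn, with 1105 CPM in IMQ-D5 members and 272 CPM in Ctrl members. Matricellular and mineralisation genes were higher in 11 and lower in 2 among 24 (median 0.67). Postn, which encodes periostin, had 1114 CPM in IMQ-D5 members and 109 CPM in Ctrl members, 10.3-fold (9.49 to 11.1) higher. Matrix proteases and their inhibitors were higher in 11 and lower in 1 among 30 (median 0.71). Timp1, an inhibitor of matrix metalloproteinases, had 626 CPM in IMQ-D5 members and 59.6 CPM in Ctrl members, 10.5-fold (9.45 to 11.7) higher, against 11.5-fold in other fibroblasts.

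Signalling lists moved less evenly. Wnt genes were the list with the lowest median, at -1.03, and -1.24 against all genes, with 4 higher and 13 lower of 25 measured. Nkd2, a feedback inhibitor of the pathway, had 7.02 CPM in IMQ-D5 members and 64.0 CPM in Ctrl members, 9.12-fold (6.45 to 13.3) lower, and Tcf7, a Wnt transcription factor, 1.40 CPM in IMQ-D5 and 14.5 CPM in Ctrl members. Sfrp1, a secreted Wnt inhibitor, was higher, at 170 CPM in IMQ-D5 members and 52.4 CPM in Ctrl members. Other fibroblasts had 3 Wnt genes higher and 8 lower among 27, at a median of -0.69.

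BMP and Gdf genes were higher in 4 and lower in 7 among 22 (median -0.77). Gdf10, a ligand of the family, went the other way from Grem1, with 122 CPM in IMQ-D5 members and 9.78 CPM in Ctrl members, 12.5-fold (9.67 to 16.5) higher, where other fibroblasts had 38.8 CPM in IMQ-D5 and 26.2 CPM in Ctrl cells. TGF-beta genes were higher in 4 and lower in 6 among 21 (median -0.25). Tgfbi, a target that binds integrins, had 277 CPM in IMQ-D5 members and 1086 CPM in Ctrl members, 3.92-fold (3.70 to 4.16) lower. Growth factor genes of the IGF list were higher in 8 and lower in 3 among 28 (median 0.51), and Igfbp5 had 204 CPM in IMQ-D5 members and 1104 CPM in Ctrl members, 5.399-fold (5.06 to 5.77) lower.

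Acute-phase, chemokine and complement genes had high medians, and interferon and NF-kB genes lower ones. Acute-phase and antimicrobial genes were higher in 13 and lower in 1 among 17 measured, with a median log2 ratio of 3.07, and in 15 and 2 of 20 in other fibroblasts, with a median of 2.81. Saa1, whose sequence is close enough to Saa2 that reads may be split between them, had 243 UMIs in 50 IMQ-D5 members and none in Ctrl members. Chemokines and cytokines were higher in 19 and lower in 1 among 27 (median 2.39), against 15 and 2 of 30 in other fibroblasts (median 1.01). Ccl7, a monocyte attractant, had 2039 CPM in IMQ-D5 members and 461 CPM in Ctrl members, 4.42-fold (4.24 to 4.60) higher.

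Complement and coagulation genes were higher in 12 and lower in 1 among 18 (median 1.81), against 9 and 2 of 20 in other fibroblasts (median 0.74). C3, the central complement protein, had 1372 CPM in IMQ-D5 members and 209 CPM in Ctrl members, 6.57-fold (6.20 to 6.97) higher. In other fibroblasts C3 had 1948 CPM in IMQ-D5 and 928 CPM in Ctrl cells. Interferon response genes were higher in 12 and lower in 2 among 27 (median 0.79). Ifi27l2a, an interferon-induced gene, had 516 CPM in IMQ-D5 members and 125 CPM in Ctrl members. Genes of the NF-kB and IL-17 response were higher in 4 and lower in none among 22, beside 11.5% and 5.95% of all measured genes. Their median was 0.17, and -0.04 against all genes. Nfkbia, the feedback inhibitor of NF-kB, had 2266 CPM in IMQ-D5 members and 1821 CPM in Ctrl members.

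Lipid and adipogenic genes were higher in 10 and lower in 1 among 23 (median 0.67). Apod, a lipid carrier of the lipocalin family, had 3642 CPM in IMQ-D5 members and 319 CPM in Ctrl members, 11.4-fold (10.9 to 11.96) higher. Lpl, which frees fatty acids from lipoproteins, had 934 CPM in IMQ-D5 members and 145 CPM in Ctrl members, 6.43-fold (6.00 to 6.90) higher. Adipoq, Plin1 and Lep, genes of mature adipocytes, had no UMI in members of either library. Hyaluronan genes were higher in 5 and lower in none among 10 (median 0.73), and Has1, a hyaluronan synthase, had 547 CPM in IMQ-D5 members and 271 CPM in Ctrl members.

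Transcription factors of connective tissue were higher in 8 and lower in 4 among 29 (median 0.42), and Osr2 had 69.2 CPM in IMQ-D5 members and 222 CPM in Ctrl members. Retinoid, vitamin and steroid genes were higher in 3 and lower in 6 among 15 (median -0.14), and Cyp26b1, which degrades retinoic acid, had 56.3 CPM in IMQ-D5 members and 439 CPM in Ctrl members, 7.79-fold (6.89 to 8.84) lower. Contractile genes were higher in 3 and lower in 1 among 12, mechanical response genes in 4 and 1 of 15, and hypoxia and glycolysis genes in 3 and 3 of 24. Over all measured genes the shares were 11.5% higher and 5.95% lower. Early response genes, which the digestion of skin can switch on, were higher in 2 and lower in none among 25 (median 0.22), close to all genes.

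Of 28 measured genes of the cell cycle 25 were higher and none lower (median 3.05), but from few cells. Mki67, a marker of cycling cells, had 97 UMIs in 17 IMQ-D5 members and 3 UMIs in 3 Ctrl members. At 5000 UMIs a cell 15 of 305 IMQ-D5 members (4.92%) and 1 of 540 Ctrl members (0.185%) had 5 or more UMIs of 29 cell cycle genes. Among other fibroblasts the shares were 2.66% in the IMQ-D5 library and 0.323% in the Ctrl library.

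**Figure D5:**
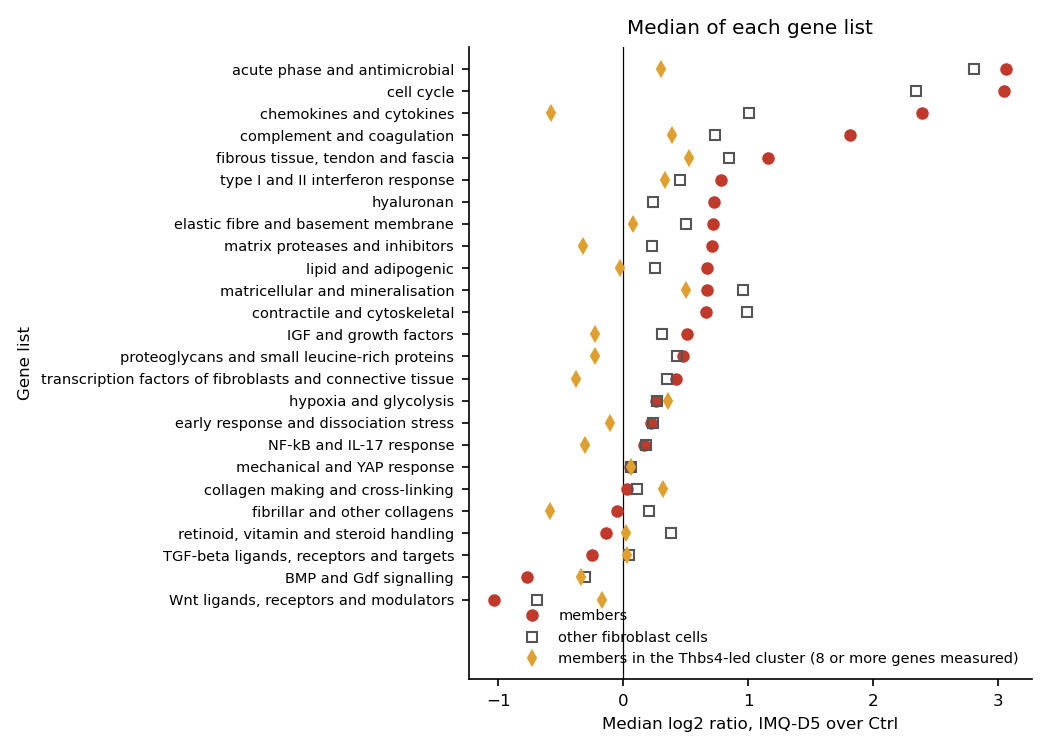
Points give the median log2 ratio of IMQ-D5 over Ctrl for 25 gene lists in members, in other fibroblasts and in members of the Thbs4-led cluster (lists with at least 8 measured genes there). Members have medians of 3.07 for acute-phase genes and 2.39 for chemokines, while inside the Thbs4-led cluster these are 0.30 and -0.57.

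Members inside the Thbs4-led cluster shared less of the chemokine difference, and few of their acute-phase genes could be measured. Of 4977 genes measured there 210 (4.22%) were higher and 222 (4.46%) lower in the IMQ-D5 library, against 1436 (12.9%) and 711 (6.41%) of 11099 in members outside it; the fewer cells inside limit what could be called. Chemokines were higher in 2 and lower in 5 among 12 measured inside (median -0.57). Cxcl12 had 213 CPM in IMQ-D5 cells and 190 CPM in Ctrl cells inside the cluster, and 1836 CPM in IMQ-D5 cells and 59.9 CPM in Ctrl cells outside it. Ccl7 had 229 CPM in IMQ-D5 cells and 1465 CPM in Ctrl cells inside, and 2182 CPM in IMQ-D5 cells and 386 CPM in Ctrl cells outside. The difference between inside and outside was not tested. Acute-phase genes were higher in 3 and lower in 1 among 8 measured in members inside (median 0.30). Over all 284 IMQ-D5 and 268 Ctrl cells of the cluster, most of them no members, 319 (3.21%) of 9929 measured genes were higher and 296 (2.98%) lower. In these cells acute-phase genes were higher in 12 and lower in none among 14 (median 2.70), and chemokines higher in 5 and lower in 6 among 19 (median -0.49).

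Other genes kept their direction inside the cluster. Saa3 had 433 UMIs in 15 of 41 IMQ-D5 members and none in 73 Ctrl members, and Lcn2 had 190 UMIs in IMQ-D5 and none in Ctrl members. Timp1 stood at 505 CPM in IMQ-D5 cells and 45.9 CPM in Ctrl cells, and Tnc at 483 CPM in IMQ-D5 cells and 80.8 CPM in Ctrl cells. Eln was past 2-fold inside the cluster, at 7749 CPM in IMQ-D5 cells and 2247 CPM in Ctrl cells, and not outside it, at 1729 CPM in IMQ-D5 cells and 1059.9 CPM in Ctrl cells. Igfbp5 had 51.8 CPM in IMQ-D5 cells and 568 CPM in Ctrl cells.

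Against the other fibroblasts of the same library, few genes set the members apart in both libraries. Of 13031 genes measured 15 (0.115%) were higher and 140 (1.07%) lower in members in both; Pi16 and Coch, which the rule used, were among the lower ones. None of the 15 reached the limits set for naming genes, and with the Thbs4, Cilp or Meox1-rich cells that the rule left out removed from the comparison they were 74 higher and 200 lower. The highest level among the 15 was that of Spp1, which encodes osteopontin, chosen after its values were seen. It had 107 CPM in members and 25.8 CPM in other fibroblasts of the IMQ-D5 library, and 8.71 CPM in members and 2.19 CPM in other fibroblasts of the Ctrl library. Of its 536 UMIs in IMQ-D5 members 464 came from the 26 cells with Thbs4 and no Cilp. Members with Cilp alone had 21.0 CPM of Spp1 in the IMQ-D5 library, below the other fibroblasts, and 8.65 CPM in the Ctrl library. Cldn5, Egfl7 and Erg, genes of vessel lining, were also among the 15, with 6.82 CPM of Cldn5 in members and 0.730 CPM in other fibroblasts of the IMQ-D5 library, and 1.83 and 0.591 CPM in the Ctrl library. They were named after their values were seen. Of the marker genes 7 of 8 endothelial markers were detected in IMQ-D5 members and 8 of 8 in Ctrl members, summing to 25.1 and 11.5 CPM in members and 13.6 and 8.12 CPM in other fibroblasts, and their part was not tested.

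The 6 genes most clearly lower in members were Smpd3, Cxcl10, Pla1a, Procr, Sfrp2 and Plac8. Smpd3, a sphingomyelinase, had 9.02 CPM in members and 102 CPM in other fibroblasts of the IMQ-D5 library, and 1.68 CPM in members and 131 CPM in other fibroblasts of the Ctrl library. Sfrp2, a secreted modulator of Wnt signals, had 63.5 CPM in members and 206 CPM in other fibroblasts of the IMQ-D5 library, and 21.2 and 346 CPM in the Ctrl library. Cxcl10, an interferon-induced chemokine, had 107 CPM in members and 408 CPM in other fibroblasts of the IMQ-D5 library, and 21.4 and 123 CPM in the Ctrl library. Cells with 3 or more Pi16 UMIs could not be members, and the summed level of 8 interstitial progenitor markers, Pi16 included, was 456 CPM in members and 2059 CPM in other fibroblasts of the IMQ-D5 library, against 303 and 2180 CPM in the Ctrl library. Col8a1 was at 104 CPM in members and 107 CPM in other fibroblasts of the IMQ-D5 library, and at 28.4 CPM in members and 8.99 CPM in other fibroblasts of the Ctrl library.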

How the data were processed

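Single-cell 3' libraries of skin were counted by the authors, and the deposited values are raw UMI counts per gene and barcode, 1 matrix per group. Per the file headers the matrices come from Cell Ranger 5.0.0. The submitters' processing notes name version 3.0.2 of it, Seurat 2.0 and mm10; other settings are not given in the sources used here. Listed barcodes held at least 500 UMIs, and the libraries totalled about 144055000 UMIs for IMQ-D5 and 123089000 for Ctrl.

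Members were found by the stated rule, with other fibroblasts being all cells that passed its fibroblast steps and are not members. UMIs were summed per library and set, divided by their total to give CPM, and given exact Poisson intervals, exact Clopper-Pearson intervals for shares and exact conditional binomial intervals for ratios, all at 95% and for counting error only. UMIs collapse amplified copies of a molecule but cells of 1 library are not replicates, so no test was made. Ratios against 0 used a floor of 3 UMIs, and list medians hold such genes at that bound. Free RNA was estimated as the median, over markers of keratinocytes, leukocytes, endothelium, melanocytes and muscle with at least 20 CPM in the library (25 in IMQ-D5, 16 in Ctrl), of a marker's CPM in members over that in the library. Doublets were called with Scrublet in scanpy 1.11.5 and kept in the main values: it called 110 of 8499 IMQ-D5 cells (1.29%, with 6.80% expected) and 422 of 10297 Ctrl cells (4.10%, with 8.24% expected). Fibroblasts of each library were clustered separately with leidenalg 0.10.2 (2000 variable genes, 30 components, 15 neighbours, resolution 0.8). Sums and intervals were computed with numpy 2.4.6 and scipy 1.17.1 and tested on simulated data. Gene positions come from GENCODE M21 on GRCm38 for 27645 of 27998 IDs.

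The members, the marker sets and the 25 gene lists (597 genes, of which 8 entries were not found) were chosen with earlier results of these data known. Named genes had 100 UMIs or more, 50 CPM or more where they were higher, a 2-fold ratio that held without the cell with most UMIs, and 3 times the level free RNA could give. Mitochondrial, ribosomal, haemoglobin, Gm- and Rik-named genes and genes of the rule were left out. This gave 271 higher and 111 lower genes, in order of that bound of the interval which lies nearer to equality, and the first 12 of each are given. For members against other fibroblasts 0 genes met the rule higher and 13 lower, of which 6 are given. From each list up to 4 extreme genes and the 2 with the highest CPM were eligible, and all genes of the fibrous list. The genes shown inside and outside the Thbs4-led cluster were chosen after their values were seen. Clusters, subsets by Thbs4 or Cilp and the comparison with fibroblasts under 2 UMIs of the 3 genes were added after the data were seen.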

Additional observations from a re-analysis of the deposited data

Results flagged for a closer look

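Several genes had opposite directions in subsets of the Cilp fibroblasts, past 2-fold with intervals that excluded equality in both. These differences between subsets were not tested, the subsets were formed after the data had been seen, and all values are log2 ratios of IMQ-D5 over Ctrl. For members inside and outside the Thbs4-led cluster, Ccl7, a monocyte attractant, was at -2.68 inside and 2.50 outside. Sfrp2, a Wnt modulator, was at -3.08 inside and 3.21 outside. Meox2, a homeobox factor related to Meox1, was at -4.26 inside, from 1 IMQ-D5 and 24 Ctrl UMIs, and 1.5004 outside. Ptgs2, the inducible prostaglandin synthase, was at -1.33 inside and 2.10 outside, and Thbs1, thrombospondin 1, at -1.15 inside and 2.05 outside. Gpc6, a glypican, was at -1.46 inside and 1.99 outside, and Itih5, which binds hyaluronan, at -1.01 inside and 2.25 outside. Acta2, smooth muscle actin, was at -1.99 in members with Thbs4, from 5 IMQ-D5 and 20 Ctrl UMIs, and 1.22 in members with Cilp alone. Among the members with Thbs4, 26 of 61 IMQ-D5 cells and 6 of 69 Ctrl cells had no Cilp.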

How the results depend on the processing

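The share of Cilp fibroblasts was 11.7% in the IMQ-D5 and 7.96% in the Ctrl library at 5000 UMIs a cell, 13.6% and 7.30% at 3000, and 7.99% and 7.22% with at least 3 UMIs of Thbs4, Cilp and Meox1. Leaving Meox1 out, removing doublets or asking for 500 genes a cell moved it by less than its counting interval. With at least 100 UMIs a gene 652 genes were higher and 333 lower in IMQ-D5 members, which leaves fewer genes to count, and in members with Thbs4 detected 413 and 301, a smaller set of cells. With the median ratio set to 0 there were 876 higher genes in members, 1031 genes higher in other fibroblast cells, IMQ-D5 over Ctrl, and lower genes in members 939, so the higher share of calls was 48.3% in place of 66.0%; with free RNA subtracted it was 76.5%. Against fibroblasts under 2 UMIs of the 3 genes, 74 genes in place of 15 were higher in members. The other counts stayed within 1.5 times.

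Log2 ratios of IMQ-D5 over Ctrl left their counting interval for 108 of 141 named genes in members with Thbs4 detected, for 92 of 172 by the mean CPM of cells, for 79 of 174 with members found after thinning and for 75 of 176 with the median set to 0. List medians moved by over 0.25 in 15, 6, 9 and 0 of 25 lists in these settings. Among 176 named genes and 25 lists a few log2 ratios changed sign as well, and the cause was not tested. In members with Thbs4 detected these were the cell cycle list (-0.55), Gpc6 (-0.21), Acta2 (-1.99), Il17ra (-0.14), Itih5 (-0.60) and Cpxm2 (0.39). Of those cells 26 of 61 in the IMQ-D5 library and 6 of 69 in the Ctrl library had no Cilp. With members found after thinning the ratios that changed sign were Des (1.36) and Fabp4 (-2.31), and by the mean CPM of cells Sfrp2 (-0.0705). No paired analysis was possible because each group has 1 library, and no library could be left out. Depth and cell number limit genes with few UMIs, members inside the Thbs4-led cluster and rare cycling cells.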

Other observations

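A small group of IMQ-D5 members carried Thbs4 without Cilp, 26 cells against 6 in the Ctrl library, and 22 of them lay in a cluster whose leading genes included Spp1 and Ccl9 and in which Cilp was at 0. Their Thbs4 level was 370 CPM in the IMQ-D5 and 385 CPM in the Ctrl cells. Apod, a lipid carrier, stood at 22110 CPM in these IMQ-D5 cells and 5046 CPM in these Ctrl cells, against 3096 and 248 CPM in members with Cilp alone. Spp1, osteopontin, had 2176 CPM in the IMQ-D5 cells and 116 CPM in the Ctrl cells, against 21.0 and 8.65 CPM in members with Cilp alone. Itgb4, an integrin chain of epithelia and nerve sheaths, had 61.0 CPM in the IMQ-D5 cells and no UMI in the 6 Ctrl cells, against 2.75 and 0.509 CPM. Col1a1, which the rule used, had 7911 CPM in the IMQ-D5 cells and 39293 CPM in the Ctrl cells. These cells were looked at after their values had been seen, and members taken as fibrous tissue cells by Thbs4 include them.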
